A study of Mus musculus with 14 samples.

Results

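Tumours grown in the strain labelled C57BI/6 mouse and in the strain labelled NGS mouse were compared after treatment with ACSS2i, which inhibits ACSS2, a synthetase that makes acetyl-CoA. The comparison uses all libraries of the labelled ACSS2i groups, 4 from the C57BI/6 host and 3 from the NGS host, which are 7 of the 14 libraries of the series. The other 7, with 4 and 3 in the same hosts, were given vehicle and give the same host contrast in separate libraries. The labels give tumour tissue from mice and no cell line, dose, length of treatment, sex or age. They do not say what NGS stands for, so no immune status was assumed, and a design line naming Bmal1 status assigns none to a library. Each library is a separate sample in the labels, which do not say that each came from a separate animal, so p-values measure the spread between these samples.

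The RNA of a tumour mixes that of its cancer cells with that of cells the host supplies. T cells recognise peptides that are displayed on MHC class I and class II proteins. Natural killer cells and cytotoxic T cells kill through granules that hold perforin and granzymes, and they release interferon gamma, which raises MHC genes and chemokines in neighbouring cells. The cytokines IL-2, IL-4, IL-7, IL-9, IL-15 and IL-21 signal through receptors that share the common gamma chain Il2rg, and lymphocytes depend on them. ACSS2 works outside the mitochondria and turns acetate into acetyl-CoA, which cells use to build lipids and to acetylate histones. Tumour RNA also carries macrophages, neutrophils, fibroblasts, vessels and pieces of adjoining muscle, fat or skin.

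RNA was measured with a kit that reads the 3' end of polyadenylated transcripts, as counts per gene. Values below are CPM, counts per 1000000 counts after scaling each library by TMM, a method that sets the bulk of the genes level between libraries. Depth followed the host. The NGS libraries held 2.85 to 4.04 M counts (M, 1000000) and the C57BI/6 libraries 18.39 to 20.34 M, so low levels were measured less precisely in the NGS host. A gene with no count in any NGS library may lie at up to 0.277 CPM, the level of 3 counts over the group, against 0.0400 CPM in the C57BI/6 group. These limits cover counting error only. The first principal component, 67.7% of the variance, separated the hosts, and the second, 14.1%, separated NGS replicate 2 from NGS replicate 1. The median SD of log2 CPM over 5424 well-expressed genes was 0.214 in the NGS group and 0.1001 in the C57BI/6 group. Summed muscle genes reached 5720.5 CPM in C57BI/6 replicate 3, 1673 in NGS replicate 1 and 600 in C57BI/6 replicate 1, and lay between 90.9 and 119 in the other libraries. Summed skin genes reached 795 CPM in NGS replicate 1 and lay between 18.8 and 36.3 elsewhere. Host, depth and any step at which the 2 sets of libraries were handled differently cannot be told apart.

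In the edgeR quasi-likelihood test, 6014 of 16141 genes tested differed between the hosts at an adjusted p under 0.05, which is 37.3%. Of these, 3413 (21.1%) were higher in the C57BI/6 host and 2601 (16.1%) were lower. A difference of at least 2-fold was reached by 2040 of the higher genes (12.6% of all tested) and by 1098 of the lower ones (6.8%). The groups did not overlap for 46.3% of all genes tested. The median log2 fold change of all genes, C57BI/6 minus NGS, was 0.06. Some of the tested genes passed the filter on low counts only through the C57BI/6 libraries. Among the 13349 that passed it in the NGS libraries, 16.9% were higher and 19.4% lower in the C57BI/6 host. The gene lists described below are read against these shares.

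Under vehicle, 5528 of 16060 genes (34.4%) differed between the hosts, 3098 higher (19.3%) and 2430 lower (15.1%) in the C57BI/6 host. Of the 5828 genes that passed under ACSS2i and were tested under both treatments, 5502 (94.4%) had the same direction under vehicle and 3603 (61.8%) also passed there. The number that passed in opposite directions was 10. Across the 15597 genes tested under both treatments, which are not independent replicates, the log2 fold changes had a Pearson correlation of 0.877 and a Spearman correlation of 0.720. A direct test of the difference between the host differences, over all 14 libraries, called 3 of 17294 genes (0.0173%). They were Amd-ps3, Pfn2 and Serpinb1a, all with a more positive host difference under ACSS2i. At an unadjusted p under 0.05, 2383 genes (13.8%) passed that test. DESeq2 called 283 and limma voom called 0. Without NGS ACSS2i replicate 1 edgeR called 62.

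**Figure D1:**
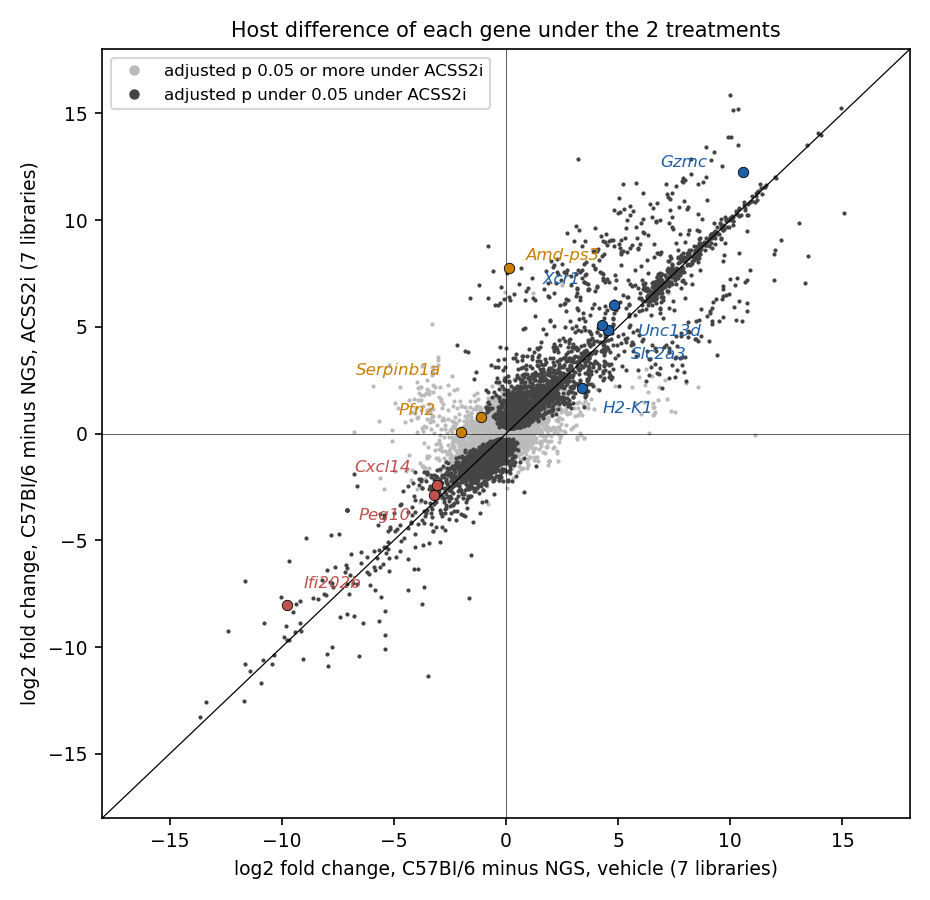
Log2 fold change of each of 15597 genes, C57BI/6 minus NGS, under vehicle (x axis) and under ACSS2i (y axis), with the line of equality. Dark points passed an adjusted p of 0.05 under ACSS2i, and genes such as Unc13d and Cxcl14 lie near the line while Amd-ps3, Pfn2 and Serpinb1a lie above it. Fitted values of genes with no count in 1 host depend on the prior count of the fit.

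Some of the strongest differences sat on transcripts that share sequence, and were treated as uncertain. Of 567 pseudogenes tested, 337 (59.4%) passed, and 32.6% were at least 2-fold higher and 23.6% at least 2-fold lower in the C57BI/6 host. Among the 7845 protein-coding genes with no overlapping or near-identical gene, 35.8% passed. Fau, a ribosomal protein and ubiquitin-like fusion gene (ENSMUSG00000038274, mm10 chromosome 19, 6057844 to 6059524), stood at 981, 1053 and 871 CPM in the NGS libraries and at 303, 337, 320.1 and 297 CPM in the C57BI/6 libraries. Its single near-identical copy, Gm9843, was at 304, 259 and 314 CPM in the NGS libraries and at 921, 1029, 931 and 822 CPM in the C57BI/6 libraries. Gene and copy thus stood in opposite order in the hosts. Their sum ran from 1185 to 1312 CPM in the NGS libraries and from 1120 to 1366 CPM in the C57BI/6 libraries, so the summed groups overlapped. The ribosomal protein gene Rpl10 showed the same kind of shift. Rpl10 alone was at 273, 459 and 348 CPM in the NGS host and at 37.8, 31.1, 70.2 and 46.3 CPM in the C57BI/6 host. With its 11 near-identical copies Rpl10 summed to 1421 to 1526 CPM in the NGS host and 1332 to 1431 CPM in the C57BI/6 host. The glycolytic gene Gapdh behaved otherwise, with 233, 186 and 198 CPM against 2500.1, 2565, 2838 and 2443 CPM. Its 85 copies together held no more than 16.3 CPM in any library, and the summed groups of Gapdh did not overlap. The exons of Gapdh and Rpl10 also overlap those of Iffo1 and Snora70. The sources used here do not say how shared reads were counted.

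The treated tumours were checked for the genes that the labels point to. Acss2, the enzyme that the inhibitor acts on, was low in both hosts (ENSMUSG00000027605, mm10 chromosome 2, 155517948 to 155585724). Acss2 read 5.48, 3.39 and 1.89 CPM in the NGS libraries and 2.00, 2.62, 3.16 and 3.67 CPM in the C57BI/6 libraries, and the groups overlapped (log2 fold change -0.31, SE 0.41, adjusted p = 0.573). An enzyme inhibitor need not change the level of its target's RNA. Acss1, the mitochondrial relative, was lower in the C57BI/6 host, at 3.30 ± 0.707 (SD, n = 4) against 6.42 ± 2.50 CPM (SD, n = 3), with overlapping groups (log2 fold change -0.97, adjusted p = 0.0427). That call was lost without any single library but NGS replicate 2, with adjusted p from 0.0536 to 0.165. Acss3 was at 1.43 ± 0.414 and 0.693 ± 0.685 CPM (adjusted p = 0.299). The exons of all of these Acss genes overlap another gene. The epithelial adhesion gene Epcam read 0.806 CPM or less in every library, and was too low to test. The epithelial keratin Krt8 was present in all libraries, at 180.4 to 241 CPM in the NGS host and 324 to 399 CPM in the C57BI/6 host (log2 fold change 0.76, adjusted p = 0.00168). Cdh1, another epithelial marker, pointed the other way and did not pass (log2 fold change -0.67, adjusted p = 0.197). Among 10 tested epithelial genes 2 were higher and 1 lower, near the share of all genes on the higher side. Of the 17 tested genes of acetyl-CoA supply and acetate handling, 3 were higher and 4 lower, near the share of all genes, and without C57BI/6 replicate 3, 1 was higher. Acly, which makes acetyl-CoA from citrate, was lower at 73.9 ± 3.88 against 101.3 ± 10.3 CPM (log2 fold change -0.46, adjusted p = 0.00868). Crat, which moves acetyl groups between CoA and carnitine, was also lower (log2 fold change -0.90, adjusted p = 0.00581), with overlapping genes.

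Genes of T cells were higher in the C57BI/6 host. Of 32 tested T cell genes, 26 were higher and 0 lower, beside 21.1% and 16.1% of all genes, and 6 did not pass. The median log2 fold change of the list was 4.01, or 2.67 with genes at 0 in all NGS libraries set at their lower bound. In bulk RNA, fewer cells of a type and less RNA per cell cannot be told apart. The filter matters here, since 22 of the 32 passed it only with the help of the C57BI/6 libraries, which favours genes higher there. Of the 10 that also passed it in the NGS libraries, 6 were higher and 0 lower, with a median of 0.79. Cd3e, a signalling chain of the T cell receptor complex, had no count in any NGS library. Cd3e stood at 2.74, 4.83, 1.47 and 2.36 CPM in the C57BI/6 libraries, at least 10.3-fold higher (adjusted p = 0.00499, with an overlapping gene). Cd3d, another chain of the complex, had 1 count in the NGS group (0.237 CPM in replicate 3) and 6.96, 7.75, 3.16 and 4.42 CPM in the C57BI/6 libraries. The ratio of the Cd3d counts was 60.6, with an exact 95% interval from counting of 10.8 to 2400.1. Cd2, an adhesion receptor of T and natural killer cells, was at 0 in all NGS libraries and at 8.39, 15.3, 5.37 and 5.37 CPM in the C57BI/6 libraries, at least 31.1-fold higher (adjusted p = 0.00182).

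The markers of T cell subsets did not all pass the threshold, although Cd8b1, Cd4 and Foxp3 all pointed higher in the C57BI/6 host. Cd8b1, a chain of the CD8 co-receptor of cytotoxic T cells, read 1.10, 5.76 and 1.66 CPM in the NGS libraries and 12.4, 13.5, 10.6 and 14.2 CPM in the C57BI/6 libraries, with no overlap (log2 fold change 2.24, SE 0.43, adjusted p = 0.00404). Cd4, the co-receptor of helper T cells that some myeloid cells also carry, read 1.37, 1.70 and 0.473 CPM against 2.97, 4.68, 1.70 and 1.61 CPM, and did not pass (log2 fold change 1.26, adjusted p = 0.129). Foxp3, the transcription factor of regulatory T cells, was at 0 in all NGS libraries and at 2.00, 3.78, 1.02 and 0.552 CPM in the C57BI/6 host, at least 6.62-fold higher (adjusted p = 0.028), although its exons overlap other genes. The Foxp3 call was lost without NGS replicate 1 (adjusted p = 0.052) or NGS replicate 3 (adjusted p = 0.0678). Icos, a costimulatory receptor of activated T cells, rose from 0.158 ± 0.273 (n = 3) to 10.6 ± 4.96 CPM (n = 4, adjusted p = 0.000792). Ctla4, an inhibitory receptor, was at 0 in all NGS libraries and at 3.14, 5.99, 1.92 and 1.81 CPM in the C57BI/6 host, at least 11.6-fold higher (adjusted p = 0.00648). Pdcd1, which encodes PD-1, was at 1.95 ± 0.717 and 1.27 ± 0.667 CPM and did not pass (adjusted p = 0.359). Across the 11 tested checkpoint genes of T cells, 6 were higher and 1 lower. The 7 that also passed the filter in the NGS libraries held 3 higher and 1 lower. Without NGS replicate 3 the counts of checkpoint genes were 3 and 0 of 13, beside 2958 of all 16664 genes higher in that fit. Without the 3 muscle-rich libraries they were 3 and 0 of 11. With NGS replicate 1 and C57BI/6 replicates 1 and 3, which were rich in muscle RNA, left out, 18 of 31 T cell genes were higher. In that fit 1733 of all 15320 genes were higher. With all libraries thinned to the smallest depth, 9 of the 12 T cell genes still tested were higher and 0 lower. Among all genes 2290 of 12217 were higher after thinning. Under vehicle 12 of 25 T cell genes were higher and 2 lower.

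**Figure D2:**
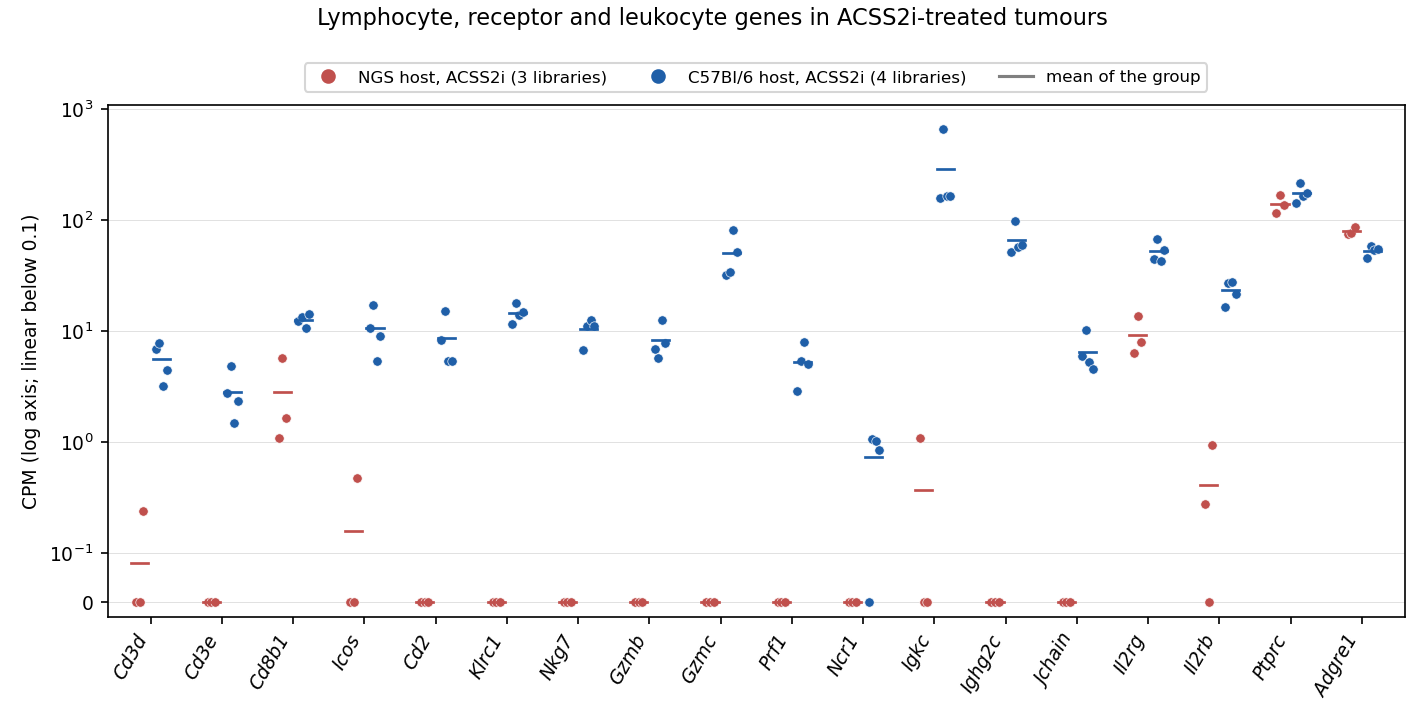
CPM of lymphocyte, receptor and leukocyte genes in each ACSS2i library (3 NGS, 4 C57BI/6), on a log axis that is linear below 0.1, with a bar at each group mean. Gzmc lies at 0 in all 3 NGS libraries and between 32.3 and 82.5 CPM in the C57BI/6 libraries, while Ptprc overlaps between the hosts.

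Genes of natural killer and cytotoxic cells had the same direction. Of 27 tested, 19 were higher and 0 lower, with a median log2 fold change of 6.64, or 2.99 with genes at 0 in all NGS libraries at their lower bound. Among all 30 genes of the list, tested or not, 17 had counts in the C57BI/6 host and none in any NGS library. The filter matters here too, since 20 of the 27 tested passed it only with the help of the C57BI/6 libraries, which favours genes higher there. Of the 7 that also passed it in the NGS libraries 3 were higher and 0 lower, with a median of 0.90. Gzmc, a granzyme of activated killer cells (ENSMUSG00000079186, mm10 chromosome 14, 56231441 to 56234656), had no count in the NGS host and stood at 32.3, 34.4, 82.5 and 51.9 CPM in the C57BI/6 libraries. It was at least 181-fold higher (adjusted p = 0.00024). Gzmb, the main cytotoxic granzyme, read 6.91, 5.69, 12.7 and 7.79 CPM against 0 in all NGS libraries, at least 29.8-fold higher (adjusted p = 0.000584). Prf1, which encodes the pore-forming protein perforin, read 2.85, 5.34, 7.97 and 5.02 CPM against 0, at least 19.1-fold higher (adjusted p = 0.00152). Granule genes were thus without a count in the NGS host and present in every C57BI/6 library. Klrc1, an inhibitory NKG2 receptor, read 11.5, 17.9, 13.9 and 15.02 CPM against 0, at least 52.6-fold higher (adjusted p = 5.02e-05). Nkg7, a granule membrane protein, read 6.73, 11.2, 12.5 and 11.2 CPM against 0, at least 37.5-fold higher (adjusted p = 0.000206). Ncr1, the receptor NKp46 of natural killer cells, read 0, 1.06, 1.02 and 0.854 CPM against 0 and did not pass (adjusted p = 0.134). Klra4, a receptor of the Ly49 family, lay at 62.4 ± 4.8003 CPM in the C57BI/6 host and 65.5 ± 11.9 CPM in the NGS host (adjusted p = 0.705). With the 3 muscle-rich libraries left out, 12 of 25 genes of the list were higher, beside 1733 of all 15320 genes in that fit. After thinning 10 of 13 were, beside 2290 of all 12217 genes. Under vehicle 14 of 19 were higher and 0 lower.

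Among genes of B and plasma cells, the immunoglobulin genes named here were higher in the C57BI/6 host, and the B cell surface genes named here were too low to test. Of 18 tested, 9 were higher and 1 lower in the C57BI/6 host, but 10 of the 18 passed the filter only with the help of the C57BI/6 libraries. Of the 8 B and plasma cell genes that also passed it in the NGS libraries 1 was higher and 1 lower, with a median log2 fold change of -0.05. Immunoglobulin genes are not annotated as protein-coding, and among the 12 protein-coding genes 3 were higher and 1 lower, with a median of 0.01. Ighg2c, an immunoglobulin heavy chain constant region (mm10 chromosome 12, 113285325 to 113288932), read 51.7, 99.0, 57.3 and 59.6 CPM in the C57BI/6 libraries and 0 in all NGS libraries, at least 241-fold higher (adjusted p = 3.29e-05). Igkc, the kappa light chain constant region, read 1.10, 0 and 0 CPM in the NGS libraries and 159.6, 668, 164 and 164 CPM in the C57BI/6 libraries (log2 fold change 9.57, adjusted p = 0.000204). Jchain, which joins secreted immunoglobulin chains, was at least 23.6-fold higher (adjusted p = 0.000919). The immunoglobulin genes were high in all C57BI/6 libraries, and replicate 2 held the most. The B cell surface genes Ms4a1 and Cd79a read 0.71 CPM or less in every library of both hosts and were too low to test. Ebf1, a transcription factor of B cells that fibroblasts and fat cells also express, was lower in the C57BI/6 host, at 36.6 ± 8.18 against 96.7 ± 12.8 CPM (log2 fold change -1.40, adjusted p = 0.000488). With limma voom 4 of the 18 B cell genes were higher.

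Of 12 tested genes of the common gamma chain receptors and Prkdc, 6 were higher in the C57BI/6 host, 1 was lower and 5 did not pass. Among the 9 that also passed the filter in the NGS libraries, 4 were higher and 1 lower. Il2rg (ENSMUSG00000031304, mm10 chromosome X, 101264378 to 101268255) read 6.30, 13.6 and 8.05 CPM in the NGS libraries and 45.0, 67.8, 43.3 and 53.8 CPM in the C57BI/6 libraries. The groups did not overlap (log2 fold change 2.52, SE 0.27, adjusted p = 0.000176). Il2rg reads were therefore present in all NGS libraries, and the gene's exons overlap Gm20489. Il2rb, the chain of the IL-2 and IL-15 receptors that lymphocytes carry, read 0.274, 0 and 0.947 CPM against 16.5, 27.3, 27.7 and 21.6 CPM (log2 fold change 5.64, adjusted p = 4e-05). Il7r, the IL-7 receptor, was higher at 18.05 ± 2.14 against 8.58 ± 2.23 CPM (log2 fold change 1.09, adjusted p = 0.00362). The ligand Il15 was higher at 11.7 ± 1.19 against 2.13 ± 1.02 CPM (log2 fold change 2.41, adjusted p = 0.000393), and its presenting receptor Il15ra at 6.56 ± 0.58 against 1.76 ± 0.853 CPM (log2 fold change 1.89, adjusted p = 0.00242). Jak3, the kinase bound to the common gamma chain, was lower, at 3.68 ± 0.817 against 8.21 ± 1.501 CPM (log2 fold change -1.15, adjusted p = 0.01, with Insl3 overlapping). Prkdc, which joins DNA ends during receptor gene rearrangement, read 6.03, 16.3 and 11.1 CPM in the NGS libraries and 8.79, 8.76, 10.2 and 10.4 CPM in the C57BI/6 libraries, and did not pass (adjusted p = 0.594). The pan-leukocyte gene Ptprc read 115, 169.5 and 136 CPM against 142, 215, 166 and 176 CPM and did not pass either (log2 fold change 0.32, SE 0.17, adjusted p = 0.17), while without NGS replicate 2 Ptprc passed (0.48, adjusted p = 0.0477).

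MHC class II genes were higher in the C57BI/6 host. Of 15 tested, 11 were higher and 0 lower, with a median log2 fold change of 1.17. Among the 12 that also passed the filter in the NGS libraries, 9 were higher and 0 lower, with a median of 0.89. Promoters of class II genes carry a Y box, a motif with the letters ATTGG that factor NF-Y binds. The 150 bases before the RefSeq start of 3 of these genes are shown because each holds such a Y box (GRCm38.p6, 5′ to 3′ on the gene's strand, capitals mark ATTGG or its complement CCAAT).
H2-Aa: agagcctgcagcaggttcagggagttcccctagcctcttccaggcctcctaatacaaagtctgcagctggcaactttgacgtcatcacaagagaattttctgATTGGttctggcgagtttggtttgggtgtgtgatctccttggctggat
H2-DMb1: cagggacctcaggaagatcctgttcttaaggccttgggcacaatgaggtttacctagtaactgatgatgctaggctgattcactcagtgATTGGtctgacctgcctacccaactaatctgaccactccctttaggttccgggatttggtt
H2-Eb1: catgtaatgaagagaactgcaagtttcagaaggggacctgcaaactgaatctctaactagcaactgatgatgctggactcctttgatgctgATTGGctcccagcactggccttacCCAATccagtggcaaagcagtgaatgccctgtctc
The windows lie at chr17:34287824-34287973 (minus strand), chr17:34153041-34153190 (plus strand) and chr17:34305717-34305866 (plus strand). The forward Y box begins 48 bases before the start in H2-Aa, 61 in H2-DMb1 and 59 in H2-Eb1. Wider windows ran from 250 bases before to 50 after the RefSeq start. Among 12 genes of the class II list with such a window, 10 (83.3%) held ATTGG on either strand. So did 41.1% of the 27025 genes with a window. The list also holds regulators of class II genes, and Rfx5 and Rfxank are among these 10. Of the genes of the list that were higher in the C57BI/6 host and had a window, 5 of 7 (71.4%) held it. A match is a description of these letters and no measure of binding.

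The class II genes with these promoters differed in how far they stood apart. H2-Aa, the alpha chain of I-A, read 50.4, 29.2 and 48.8 CPM in the NGS libraries and 455, 624, 151 and 431 CPM in the C57BI/6 libraries, with no overlap (log2 fold change 3.27, SE 0.45, adjusted p = 0.000708). H2-DMb1, which helps to load peptides on class II, read 0.822, 2.03 and 0.71 CPM against 46.8, 72.0, 29.8 and 41.2 CPM (log2 fold change 5.39, SE 0.47, adjusted p = 4.21e-05). H2-Eb1, the beta chain of I-E, read 87.9, 127 and 99.2 CPM against 267, 372, 86.0 and 246 CPM (log2 fold change 1.21, SE 0.40, adjusted p = 0.0416). C57BI/6 replicate 3 was the lowest of its group for all of these genes and fell below the NGS libraries for H2-Eb1. The H2-Eb1 call held without C57BI/6 replicate 3 and was lost without any other single library, with adjusted p from 0.0535 to 0.117. H2-Ab1, the partner of H2-Aa, was also higher (log2 fold change 2.70, adjusted p = 0.00115). Ciita, the master activator of class II transcription, was higher at 3.48 ± 1.75 against 0.749 ± 0.317 CPM (log2 fold change 2.22, adjusted p = 0.0171), with an overlapping gene. Under vehicle Ciita had a host difference of -0.20 (adjusted p = 0.787), and the difference between the treatments did not pass (adjusted p = 0.248). Without NGS replicate 3 the adjusted p of Ciita under ACSS2i was 0.0673. Without C57BI/6 replicate 1 or replicate 4, 6 class II genes passed, and without replicate 2, 7 did. Of all genes, 2545 of 14908, 2494 of 14935 and 2670 of 14886 were higher in these fits. Under vehicle 7 of 14 were higher and 0 lower.

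Class I presentation genes were higher in part. Of 26 tested, 15 were higher and 3 lower, with a median log2 fold change of 1.31. However, 18 of the 26 have an overlapping or near-identical gene, and of the 8 protein-coding ones with neither 3 were higher and 2 lower, with a median of 0.22. B2m, the shared light chain of class I, read 2956, 3671 and 3745 CPM in the NGS libraries and 9531, 8479, 9016 and 9413 CPM in the C57BI/6 libraries (log2 fold change 1.40, SE 0.11, adjusted p = 2.15e-05). The heavy chain H2-K1 read 277, 281 and 344 CPM against 1109.6, 1440.1, 1362 and 1435 CPM (log2 fold change 2.15, adjusted p = 5.39e-06). H2-K1 and H2-D1 are near-identical over part of their 3' ends, so the split between them is uncertain. Their sum ran from 892 to 1311 CPM in the NGS host and from 3069 to 3506 CPM in the C57BI/6 host, without overlap. The immunoproteasome subunit Psmb9 was at 105 ± 13.9 against 27.0 ± 10.3 CPM (log2 fold change 1.95, adjusted p = 0.000394), and the class I activator Nlrc5 at 19.3 ± 1.87 against 5.02 ± 0.385 CPM (log2 fold change 1.94, adjusted p = 4.88e-05). The exons of Psmb9 overlap Tap1, and those of Nlrc5 overlap another gene. The folding chaperones Calr and Canx went the other way. Calr was lower at 719 ± 37.1 against 1130.2 ± 130.3 CPM (log2 fold change -0.65, adjusted p = 0.00118), and Canx was lower by a log2 fold change of -0.60 (adjusted p = 0.0012). Under vehicle 20 of 25 class I genes were higher and 2 lower.

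**Figure D3:**
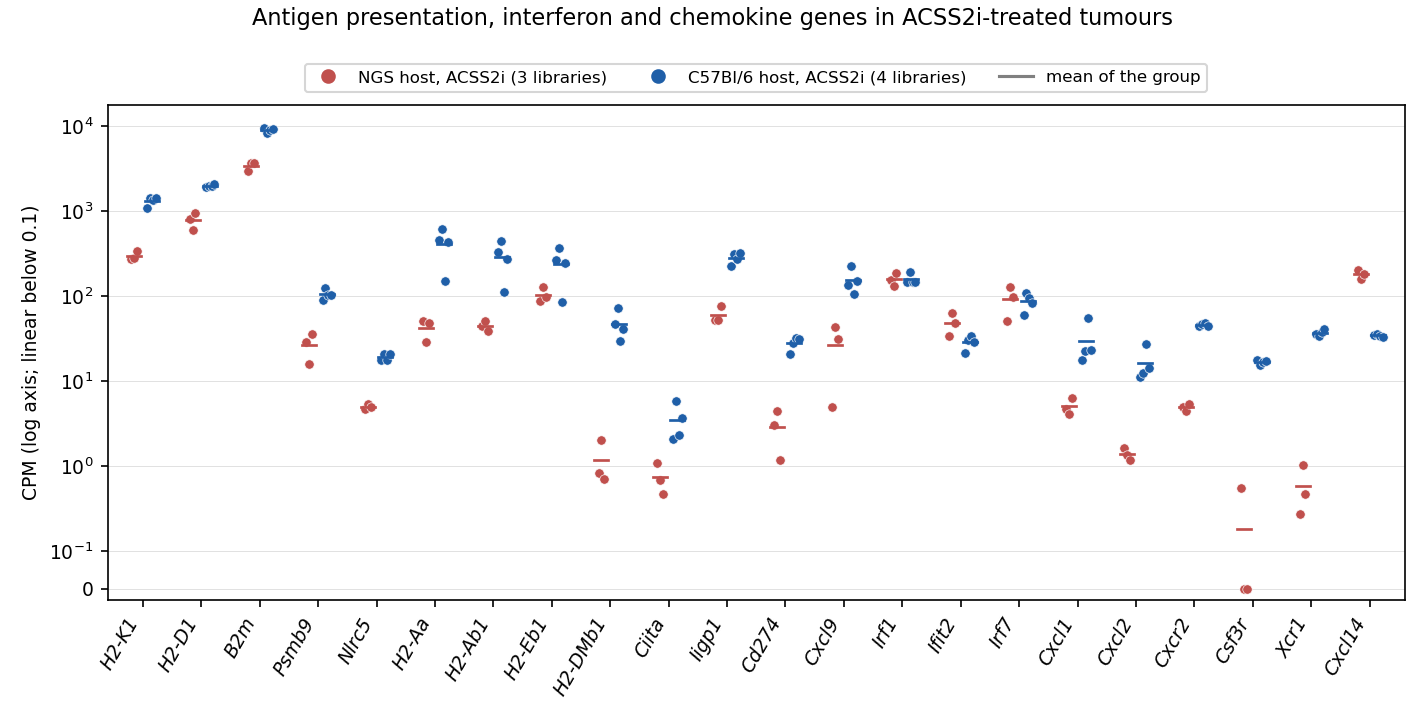
CPM of antigen presentation, interferon and chemokine genes in each ACSS2i library (3 NGS, 4 C57BI/6), on a log axis that is linear below 0.1, with a bar at each group mean. B2m lies between 2956 and 3745 CPM in the NGS libraries and between 8479 and 9531 CPM in the C57BI/6 libraries, Irf1 overlaps between the hosts, and Cxcl14 is the gene that stands lower in the C57BI/6 host by the widest margin here.

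The 2 interferon lists differed in their counts. Of 36 genes of the interferon gamma response, 22 were higher and 1 lower, with a median log2 fold change of 1.08. Among the 31 that also passed the filter in the NGS libraries, 20 were higher and 1 lower. Of 41 genes of the type I interferon response, 8 were higher and 1 lower, with a median of -0.03, near the share of all genes on the higher side. Iigp1, an interferon-induced GTPase that acts on the vacuoles of intracellular pathogens, read 51.8, 52.2 and 76.2 CPM in the NGS libraries and 225, 318, 275 and 323 CPM in the C57BI/6 libraries (log2 fold change 2.24, adjusted p = 3.46e-05). Cd274, which encodes the checkpoint ligand PD-L1, read 3.01, 4.41 and 1.18 CPM against 20.6, 27.7, 32.1 and 31.4 CPM (log2 fold change 3.35, adjusted p = 0.000125). The chemokine Cxcl9, a classical interferon gamma target, read 4.93, 43.4 and 31.5 CPM against 136, 229.8, 107 and 152 CPM (log2 fold change 2.57, adjusted p = 0.00637). None of these overlapped between the hosts, and NGS replicate 1 was the lowest for Cxcl9. Irf1, an early target of interferon gamma, did not pass, at 153, 132 and 189 CPM against 148, 192, 148 and 147 CPM (log2 fold change 0.00, SE 0.15, adjusted p = 0.993).

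Among type I genes, Isg15, a ubiquitin-like modifier, was higher at 190.1 ± 27.5 against 85.6 ± 23.3 CPM (log2 fold change 1.15, adjusted p = 0.00174). Zbp1, a sensor of nucleic acids, was higher (log2 fold change 0.92, adjusted p = 0.00111). Ifit2, which binds viral RNA, was lower, at 28.8 ± 5.31 against 48.6 ± 14.7 CPM with overlapping groups (log2 fold change -0.75, adjusted p = 0.0262). The Ifit2 call was lost without NGS replicate 2 or 3 or C57BI/6 replicate 1 or 4, with adjusted p from 0.055 to 0.0811. Irf7, the regulator that amplifies type I interferon, was at 87.6 ± 20.97 and 92.2 ± 38.8 CPM (adjusted p = 0.869). Without NGS replicate 1 the type I list held 7 higher and 9 lower genes. Under vehicle 24 of the 41 type I genes were higher and 0 lower, with a median of 0.66, and 27 of 36 interferon gamma genes were higher and 0 lower. No gene of either list passed the test of the difference between the treatments, so the difference in counts was not shown for any single gene.

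Promoter windows of 2 genes raised in the C57BI/6 host are shown because they hold the motifs that interferon factors read, the GAS element, searched as TTCNNNGAA, and the ISRE, searched as GAAA, any 2 bases and GAAA again (150 bases before the RefSeq start, GRCm38.p6, 5′ to 3′ on the gene's strand, capitals mark the motifs).
Fcgr1: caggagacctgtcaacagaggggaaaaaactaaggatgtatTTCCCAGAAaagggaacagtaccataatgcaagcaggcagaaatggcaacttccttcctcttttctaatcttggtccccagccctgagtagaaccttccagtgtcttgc
Irgm2: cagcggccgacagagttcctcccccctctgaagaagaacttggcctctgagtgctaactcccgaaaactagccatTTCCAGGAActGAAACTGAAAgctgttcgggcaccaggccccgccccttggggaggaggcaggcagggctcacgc
The windows lie at chr3:96293970-96294119 (minus strand) and chr11:58214827-58214976 (plus strand). The GAS begins 109 bases before the start in Fcgr1 and 75 in Irgm2, and the ISRE of Irgm2 begins 64 bases before it. Both motifs were searched on both strands. In windows of 250 bases before to 50 after the start, a GAS was found in 12 of 23 interferon gamma genes (52.2%), in 6 of 32 type I genes (18.8%) and in 9.55% of 27025 genes. Among the interferon gamma genes that were higher in the C57BI/6 host and had a window, a GAS was found in 5 of 12 (41.7%), and an ISRE in as many. An ISRE was found in 11 of the 23 (47.8%), in 17 of the 32 (53.1%) and in 3.99% of all. Fcgr1, the high-affinity receptor for IgG, read 18.6, 28.8 and 27.7 CPM in the NGS libraries and 45.7, 55.2, 49.6 and 45.1 CPM in the C57BI/6 libraries (log2 fold change 0.97, adjusted p = 0.00242). Irgm2, an immunity-related GTPase, read 10.1, 6.10 and 11.4 CPM against 27.5, 36.0, 29.4 and 32.2 CPM (log2 fold change 1.74, adjusted p = 0.000298), and its exons overlap those of Igtp. Neither gene overlapped between the hosts.

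Chemokines were mostly higher in the C57BI/6 host, with 15 of 27 tested higher and 1 lower and a median log2 fold change of 1.06. Here 9 of the 27 passed the filter only with the help of the C57BI/6 libraries. The 18 that also passed it in the NGS libraries held 10 higher and 1 lower, with a median of 0.78. Cxcl14, a chemokine of epithelium and fibroblasts, was the exception (ENSMUSG00000021508, mm10 chromosome 13, 56288643 to 56296551). Cxcl14 read 204, 162 and 181 CPM in the NGS libraries and 35.3, 35.7, 33.6 and 33.5 CPM in the C57BI/6 libraries (log2 fold change -2.40, SE 0.11, adjusted p = 7.42e-07). The neutrophil-attracting Cxcl2 read 1.64, 1.36 and 1.18 CPM against 11.1, 12.4, 27.1 and 14.1 CPM (log2 fold change 3.53, adjusted p = 0.000471). Cxcl1, its close relative, was higher by a log2 fold change of 2.54 (adjusted p = 0.00298). For both, C57BI/6 replicate 3 was the highest library. Xcl1, which lymphocytes release to draw dendritic cells, was at 0 in all NGS libraries and at 7.31, 8.06, 6.95 and 7.79 CPM in the C57BI/6 host, at least 27.1-fold higher (adjusted p = 8.88e-05, with an overlapping gene). Xcr1, its receptor on cross-presenting dendritic cells, read 0.274, 1.02 and 0.473 CPM against 35.6, 34.0, 37.8 and 41.2 CPM (log2 fold change 6.04, SE 0.27, adjusted p = 8.41e-07). Both members of this ligand and receptor pair were thus higher. Clec9a, another gene of cross-presenting dendritic cells, read 1.18 CPM or less in every library and was too low to test. Of the 23 tested dendritic cell genes 6 were higher and 0 lower, near the 21.1% of all genes on the higher side. The 16 that also passed the filter in the NGS libraries held 3 higher, beside 16.9% of all genes that passed it there. Ccl5 was higher at 99.4 ± 22.6 against 60.4 ± 12.5 CPM with overlapping groups (log2 fold change 0.72, adjusted p = 0.0268). The Ccl5 call was lost without NGS replicate 1 or C57BI/6 replicate 2, 3 or 4, with adjusted p from 0.0626 to 0.0736. With limma voom 9 chemokines were higher and 2 lower, and without C57BI/6 replicate 2, 12 of 25 were higher and 3 lower. Under vehicle 13 of 27 were higher and 4 lower.

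Neutrophil genes moved with their chemokines, with 11 of 15 tested higher and 0 lower and a median log2 fold change of 1.73. Among the 11 that also passed the filter in the NGS libraries, 9 were higher and 0 lower. Cxcr2, the receptor for Cxcl1 and Cxcl2, read 4.93, 4.41 and 5.44 CPM in the NGS libraries and 44.0, 46.8, 48.0 and 45.2 CPM in the C57BI/6 libraries (log2 fold change 3.21, SE 0.14, adjusted p = 7.42e-07). Csf3r, the receptor for G-CSF, had 2 counts in the NGS group, at 0.548 CPM in replicate 1, and read 17.8, 15.4, 16.9 and 17.1 CPM in the C57BI/6 libraries. The ratio of the Csf3r counts was 90.7, with an exact 95% interval from counting of 25.1 to 749.9. Both receptors stood far apart, with little spread in the C57BI/6 libraries. Csf3r had too few NGS counts for a spread to be read there. S100a8, an abundant calcium-binding protein of neutrophils, was higher at 20.8 ± 5.21 against 6.68 ± 2.09 CPM (log2 fold change 1.62, adjusted p = 0.00208). Lcn2, which binds bacterial siderophores, was higher at 44.5 ± 16.1 against 2.50 ± 0.931 CPM (log2 fold change 4.19, adjusted p = 0.000168). Ly6g, the surface marker of mouse neutrophils, read 0.453 CPM or less in every library and was too low to test. Under vehicle 8 of 16 neutrophil genes were higher and 1 lower.

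Genes of NF-kB signalling and inflammatory cytokines were higher in 11 of 22 cases and lower in 0. The 18 that also passed the filter in the NGS libraries held 11 higher and 0 lower. Nfkbia, the feedback inhibitor of NF-kB, read 326, 229.5 and 346 CPM in the NGS libraries and 707, 768, 953 and 763 CPM in the C57BI/6 libraries (log2 fold change 1.41, adjusted p = 0.000265). Il1b was higher at 33.2 ± 14.6 against 9.74 ± 5.94 CPM (log2 fold change 1.73, adjusted p = 0.017, with an antisense gene overlapping). Tnf read 0, 3.05 and 1.18 CPM against 1.08, 1.31, 1.75 and 2.51 CPM and did not pass (adjusted p = 0.773). Among 25 immediate early genes, which cells switch on within minutes of a stimulus and also during tissue handling, 12 were higher and 0 lower. Fosb read 1.37, 2.37 and 1.89 CPM against 12.0, 15.1, 10.1 and 5.98 CPM (log2 fold change 2.53, adjusted p = 0.00163). Atf3, a stress-induced transcription factor, was higher at 25.6 ± 10.1 against 6.40 ± 0.377 CPM (log2 fold change 2.00, adjusted p = 0.00162). Times of collection are not given in the labels, and the part of handling in these values was not tested. In the 4 libraries poor in muscle RNA, 7 of 25 immediate early genes were higher, beside 1733 of all 15320 genes in that fit. Under vehicle 14 of 25 were higher and 0 lower.

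Macrophage genes moved in both directions. Of 28 tested, 9 were higher and 11 lower in the C57BI/6 host, with a median log2 fold change of -0.12. Of the general markers named here, Cd68 and Csf1r did not pass and Adgre1 was lower. Cd68, a lysosomal glycoprotein of macrophages, read 101, 96.6 and 112 CPM in the NGS libraries and 98.5, 104, 87.1 and 91.2 CPM in the C57BI/6 libraries (log2 fold change -0.12, adjusted p = 0.403). Csf1r, the receptor for the macrophage growth factor, was at 420.5 ± 54.0 and 406 ± 102 CPM (log2 fold change 0.05, adjusted p = 0.833). Adgre1, a surface marker of mouse macrophages, was lower at 53.1 ± 5.45 against 79.5 ± 6.31 CPM (log2 fold change -0.58, adjusted p = 0.00521). Arg1, which breaks down arginine, read 25.5, 35.6 and 32.7 CPM against 166, 173, 185 and 160.3 CPM (log2 fold change 2.45, SE 0.14, adjusted p = 2.55e-06). Apoe, a lipid carrier, read 1009, 1005 and 850.3 CPM against 3508, 3295, 2682 and 4631 CPM (log2 fold change 1.89, adjusted p = 7.64e-05). Nos2, the inducible nitric oxide synthase, was higher at 23.6 ± 11.8 against 1.67 ± 2.12 CPM (log2 fold change 3.81, adjusted p = 0.00257). The genes on the lower side included tissue-resident markers. Mrc1, the mannose receptor, read 330.1, 304 and 429.7 CPM against 168, 155, 168 and 147 CPM (log2 fold change -1.15, adjusted p = 0.000204). Folr2, a folate receptor, was lower at 13.4 ± 1.25 against 35.8 ± 10.4 CPM (log2 fold change -1.43, adjusted p = 0.000522, with an overlapping gene). Vsig4, a complement receptor, was lower at 0.253 ± 0.373 against 3.46 ± 2.06 CPM (log2 fold change -3.70, adjusted p = 0.0148), and without NGS replicate 1 its adjusted p was 0.0555. Leaving the 3 muscle-rich libraries out, 7 were higher and 4 lower, beside 1733 and 1179 of all 15320 genes in that fit. With the replicate block 7 were lower, beside 1361 of all 16141 genes. Without NGS replicate 3, 7 were lower, beside 2098 of all 16664 genes. Under vehicle 7 of 29 were higher and 9 lower.

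The receptors for the constant part of IgG were higher in 4 of 6 cases. Fcgr4, which binds IgG2 antibodies, was higher at 46.2 ± 8.07 against 18.98 ± 9.42 CPM (log2 fold change 1.27, adjusted p = 0.00927). Fcgr2b, the inhibitory receptor, was at 112 ± 8.63 against 38.2 ± 21.2 CPM (log2 fold change 1.54, adjusted p = 0.00641, with an overlapping gene). Fcgrt, which recycles IgG inside cells, was lower at 57.1 ± 2.85 against 104 ± 19.98 CPM (log2 fold change -0.87, adjusted p = 0.00137). Fcer1g, the signalling chain of the activating IgG receptors, was at 286 ± 23.03 and 245 ± 60.3 CPM (adjusted p = 0.291). Without NGS replicate 2 Fcer1g passed (log2 fold change of 0.43, adjusted p = 0.0245). Of 19 monocyte genes 6 were higher and 2 lower, and the inflammatory monocyte gene Ly6c2 read 14.5, 58.0 and 42.4 CPM against 39.6, 61.5, 46.4 and 35.7 CPM (adjusted p = 0.611, with the near-identical Ly6c1). Without NGS replicate 2, 4 monocyte genes were lower. Among 10 mast cell genes 1 was higher and 0 lower, with a median log2 fold change of 0.22. That count rested on NGS replicate 1, without which 6 of the 10 mast cell genes were higher, with a median of 2.74. Among 16 complement genes 3 were higher and 4 lower.

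**Figure D4:**
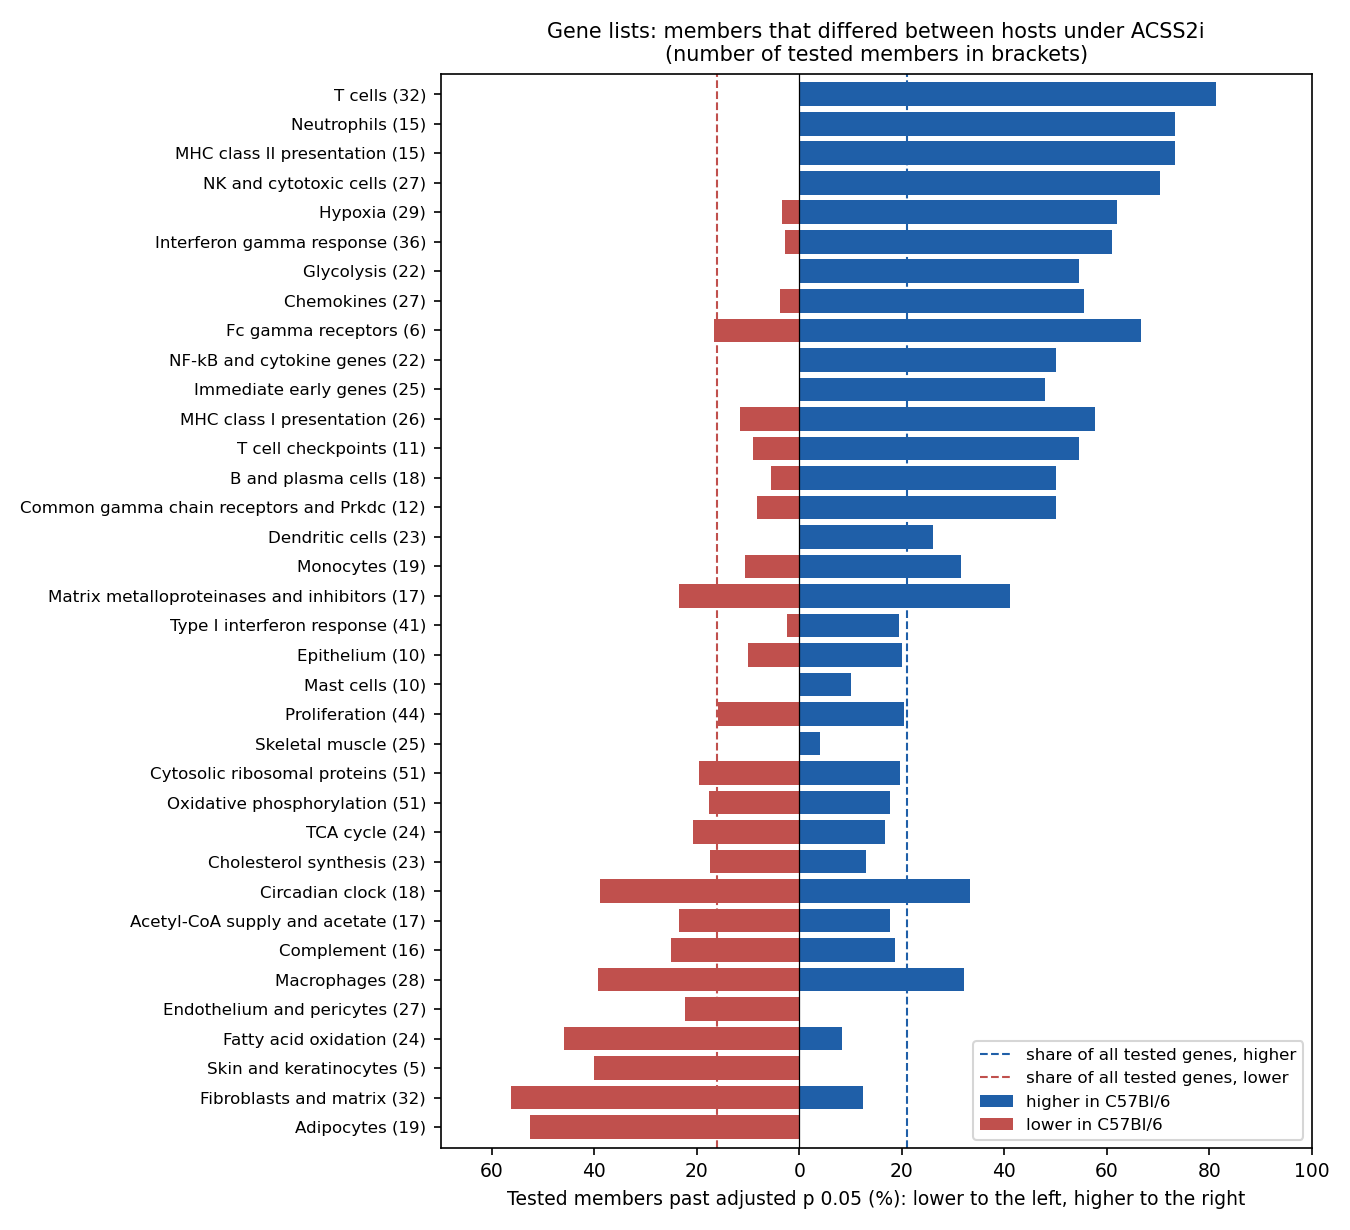
Share of the tested members of each gene list that were higher (right) or lower (left) in the C57BI/6 host under ACSS2i at an adjusted p under 0.05, with dashed lines at the shares of all genes tested (21.1% and 16.1%) and the number tested in brackets. Some tested members passed the filter only with the help of the C57BI/6 libraries. They were 22 of 32 in the T cell, 20 of 27 in the natural killer and 10 of 18 in the B cell list. Other lists hold such members too, among them 9 of 27 chemokine, 4 of 15 neutrophil and 5 of 36 interferon gamma genes. Neutrophil, class II, hypoxia and interferon gamma lists extend to the right, fibroblast, adipocyte and fatty acid oxidation lists to the left, and proliferation, ribosomal and oxidative phosphorylation lists lie near the dashed lines.

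Fibroblast and matrix genes were mostly lower in the C57BI/6 host. Of 32 tested, 4 were higher and 18 lower, beside 16.1% of all genes lower, with a median log2 fold change of -0.52. Acta2, the smooth muscle actin of myofibroblasts and vessel walls, read 195, 367 and 281 CPM in the NGS libraries and 25.2, 75.7, 38.9 and 35.2 CPM in the C57BI/6 libraries (log2 fold change -2.68, SE 0.36, adjusted p = 0.000569). Col1a1, a chain of type I collagen, read 1837, 3855 and 2890.1 CPM against 677, 1191, 935 and 965 CPM (log2 fold change -1.60, adjusted p = 0.00131). Fap, a surface protease of activated fibroblasts, read 9.59, 13.9 and 7.81 CPM against 1.60, 3.22, 1.81 and 1.36 CPM (log2 fold change -2.37, adjusted p = 0.00125). None of these groups overlapped, and NGS replicate 2 held the most of each. The proteoglycan gene Dcn went the other way, with 773, 434 and 569.6 CPM against 2503, 1983, 2818 and 3157 CPM (log2 fold change 2.14, SE 0.22, adjusted p = 0.000133). Lox, which cross-links collagen, was also higher at 421 ± 60.8 against 175 ± 39.2 CPM (log2 fold change 1.26, adjusted p = 0.000624). Col1a2, the partner chain of Col1a1, was higher at 1131 ± 345 against 635 ± 219 CPM with overlapping groups (log2 fold change 0.83, adjusted p = 0.0457), so the chains of 1 collagen stood in opposite order. The Col1a2 call was lost without NGS replicate 1 or 2 or C57BI/6 replicate 2, 3 or 4, with adjusted p from 0.0738 to 0.116. Under vehicle Col1a2 had a host difference of -0.56 (adjusted p = 0.19). In the 4 libraries left after removing the 3 muscle-rich ones, 4 fibroblast genes were higher and 11 lower. In that fit 1733 of all 15320 genes were higher and 1179 lower. Without C57BI/6 replicate 3 or replicate 4, 2 fibroblast genes were higher. Under vehicle 4 of 32 were higher and 22 lower.

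The matrix metalloproteinases and their inhibitors were higher in 7 of 17 cases and lower in 4. Mmp3, which cuts matrix proteins and other proteases, read 545, 263 and 479 CPM in the NGS libraries and 2365, 1322, 2400.1 and 2510.1 CPM in the C57BI/6 libraries (log2 fold change 2.32, adjusted p = 0.000457). Mmp13, a collagenase, was higher at 141 ± 26.7 against 43.4 ± 21.98 CPM (log2 fold change 1.69, adjusted p = 0.00398). Their inhibitor Timp1 was lower at 501 ± 55.6 against 725 ± 17.3 CPM (log2 fold change -0.53, adjusted p = 0.00382). Without NGS replicate 2, 7 genes of the list were higher and 1 lower, beside 3621 and 2464 of all 16640 genes. With the 3 muscle-rich libraries left out 4 were higher and 2 lower, beside 1733 and 1179 of all 15320 genes.

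Fat genes were on the lower side, and vessel genes were lower about as often as all genes. Of 27 tested endothelial and pericyte genes, 0 were higher and 6 lower, beside 21.1% and 16.1% of all genes. Cspg4, a proteoglycan of pericytes, read 17.5, 21.4 and 19.4 CPM in the NGS libraries and 5.71, 6.95, 5.93 and 5.73 CPM in the C57BI/6 libraries (log2 fold change -1.67, adjusted p = 8.96e-05). Emcn, a sialomucin of capillaries and veins, was lower at 12.9 ± 2.66 against 26.3 ± 0.413 CPM (log2 fold change -1.02, adjusted p = 0.00221). Pecam1, the pan-endothelial CD31, was at 57.04 ± 13.8 and 70.5 ± 13.3 CPM and did not pass (adjusted p = 0.252), but did without C57BI/6 replicate 2 (log2 fold change of -0.51, adjusted p = 0.0372). With the 3 muscle-rich libraries left out, 1 of the 27 was lower, beside 1179 of all 15320 genes in that fit. With the replicate block 3 were lower, beside 1361 of 16141. Of 19 adipocyte genes 0 were higher and 10 lower, with a median log2 fold change of -1.57. The fat cell hormone Adipoq read 31.5, 86.8 and 132 CPM against 6.22, 29.7, 10.6 and 7.38 CPM (log2 fold change -2.63, adjusted p = 0.00879). Plin4, which coats lipid droplets, was lower at 7.43 ± 5.90 against 41.7 ± 10.7 CPM (log2 fold change -2.48, adjusted p = 0.00599, with Hdgfl2 overlapping). The summed adipocyte genes ran from 909 to 2127 CPM in the NGS libraries and from 424 to 896 CPM in the C57BI/6 libraries, and the part of adjoining fat in the samples was not tested. Without NGS replicate 3, 6 adipocyte genes were lower, beside 2098 of all 16664 genes in that fit.

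Muscle genes varied widely between single libraries. Of 25 skeletal muscle genes 1 was higher and 0 lower. Acta1, the skeletal muscle actin, read 250.1, 3.73 and 2.37 CPM in the NGS libraries and 84.7, 2.87, 952 and 0.552 CPM in the C57BI/6 libraries, a spread within each host that covered the difference between them (adjusted p = 0.565). Of 5 tested skin genes 2 were lower, and 6 of 8 were without NGS replicate 2 and 5 of 7 without NGS replicate 3, when more skin genes passed the filter. Krt14, the keratin of basal skin cells, read 67.9, 11.5 and 6.16 CPM against 0.0571, 0.302, 0.452 and 0.101 CPM (log2 fold change -6.91, adjusted p = 0.000626). Krt10, of the upper skin layers, read 72.1, 0.339 and 1.89 CPM against 6.51, 4.33, 6.05 and 4.82 CPM and did not pass (adjusted p = 0.119). NGS replicate 1 held the most of both, and Krt14 was lower in every C57BI/6 library than in any NGS library. Krt10 was higher in the C57BI/6 host without NGS replicate 1 (log2 fold change of 2.16, adjusted p = 0.0138) and lower without NGS replicate 2 (log2 fold change of -2.75, adjusted p = 0.0317).

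Hypoxia and glycolysis genes were higher in the C57BI/6 host. Of 29 hypoxia genes 18 were higher and 1 lower, with a median log2 fold change of 0.67, and of 22 glycolysis genes 12 were higher and 0 lower, with a median of 0.42. Slc2a3, the glucose transporter GLUT3 of neurons and leukocytes (ENSMUSG00000003153, mm10 chromosome 6, 122727809 to 122801640), read 1.10, 0.339 and 3.08 CPM in the NGS libraries and 56.0, 55.3, 56.6 and 51.8 CPM in the C57BI/6 libraries (log2 fold change 5.06, SE 0.35, adjusted p = 1.15e-05). Slc2a1, the common glucose transporter GLUT1, read 47.4, 19.3 and 36.5 CPM against 117, 132, 124 and 116 CPM (log2 fold change 1.82, adjusted p = 0.000584, with an overlapping gene). Ero1l, an oxidase of the endoplasmic reticulum that hypoxia induces, read 132, 65.4 and 71.7 CPM against 253, 258, 312 and 256 CPM (log2 fold change 1.59, adjusted p = 0.000995). These groups did not overlap, and the C57BI/6 libraries were close together. Car9, a carbonic anhydrase induced by hypoxia, read 76.2, 7.80 and 25.3 CPM against 124, 85.8, 136 and 106 CPM (log2 fold change 1.62, adjusted p = 0.044, with an overlapping gene). On a fold scale the NGS libraries differed among themselves by more than the hosts did for Car9, although the groups did not overlap. The Car9 call was lost without NGS replicate 3 or any C57BI/6 library, with adjusted p from 0.0629 to 0.148. Ldha, which makes lactate, was higher by less, at 552 ± 34.1 against 418 ± 67.9 CPM (log2 fold change 0.40, adjusted p = 0.0264), and the Ldha call was lost without NGS replicate 3 or C57BI/6 replicate 1, 3 or 4, with adjusted p from 0.0668 to 0.0925. Pkm, the last kinase of glycolysis, was at 1452 ± 52.9 and 1571 ± 202 CPM (adjusted p = 0.405). The hypoxia gene on the lower side was Angptl4, an inhibitor of lipoprotein lipase, at 27.8 ± 5.34 against 74.0 ± 9.26 CPM (log2 fold change -1.41, adjusted p = 0.000296). Without NGS replicate 3, 11 hypoxia genes and 8 glycolysis genes were higher, beside 2958 of all 16664 genes in that fit. Without C57BI/6 replicate 3, 8 glycolysis genes were higher, beside 2667 of all 14889 genes. Under vehicle 11 of 29 hypoxia genes were higher and 2 lower, and 9 of 22 glycolysis genes were higher and 2 lower.

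Genes of fatty acid oxidation were on the lower side, with 2 of 24 higher and 11 lower and a median log2 fold change of -0.44. Cpt1a, which admits fatty acids to mitochondria, read 47.7, 76.96 and 62.7 CPM in the NGS libraries and 40.2, 32.6, 31.5 and 37.7 CPM in the C57BI/6 libraries (log2 fold change -0.81, adjusted p = 0.00586). Decr1, which handles unsaturated fatty acids, was lower at 18.7 ± 1.89 against 34.6 ± 6.27 CPM (log2 fold change -0.88, adjusted p = 0.00224). Hadha, a subunit of the trifunctional enzyme of the pathway, was at 118 ± 2.08 and 156 ± 41.3 CPM and did not pass (adjusted p = 0.0752), but did without NGS replicate 1 (log2 fold change of -0.57, adjusted p = 0.0073). The list was lower while the adipocyte sum was lower too, and the part of fat cells in it was not tested. In the 4 libraries poor in muscle RNA, 6 of the 24 were lower, beside 1179 of all 15320 genes in that fit. Other core processes lay near the shares of all genes in the fit of all 7 libraries. Oxidative phosphorylation genes were higher in 9 of 51 cases and lower in 9, tricarboxylic acid cycle genes in 4 and 5 of 24, cholesterol synthesis genes in 3 and 4 of 23, cytosolic ribosomal protein genes, many of which have near-identical copies, in 10 and 10 of 51, and proliferation genes in 9 and 7 of 44. Single libraries moved these counts. Without NGS replicate 1, 13 proliferation genes were lower and 8 tricarboxylic acid cycle genes higher. Without any 1 of the C57BI/6 libraries 5 oxidative phosphorylation genes and 2 tricarboxylic acid cycle genes were higher, and without C57BI/6 replicate 1, 2 or 3, 5 or 6 ribosomal protein genes were. The proliferation gene Top2a was at 555 ± 36.4 and 623 ± 153 CPM (adjusted p = 0.433), and without NGS replicate 1 Top2a passed (log2 fold change of -0.34, adjusted p = 0.0253).

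**Figure D5:**
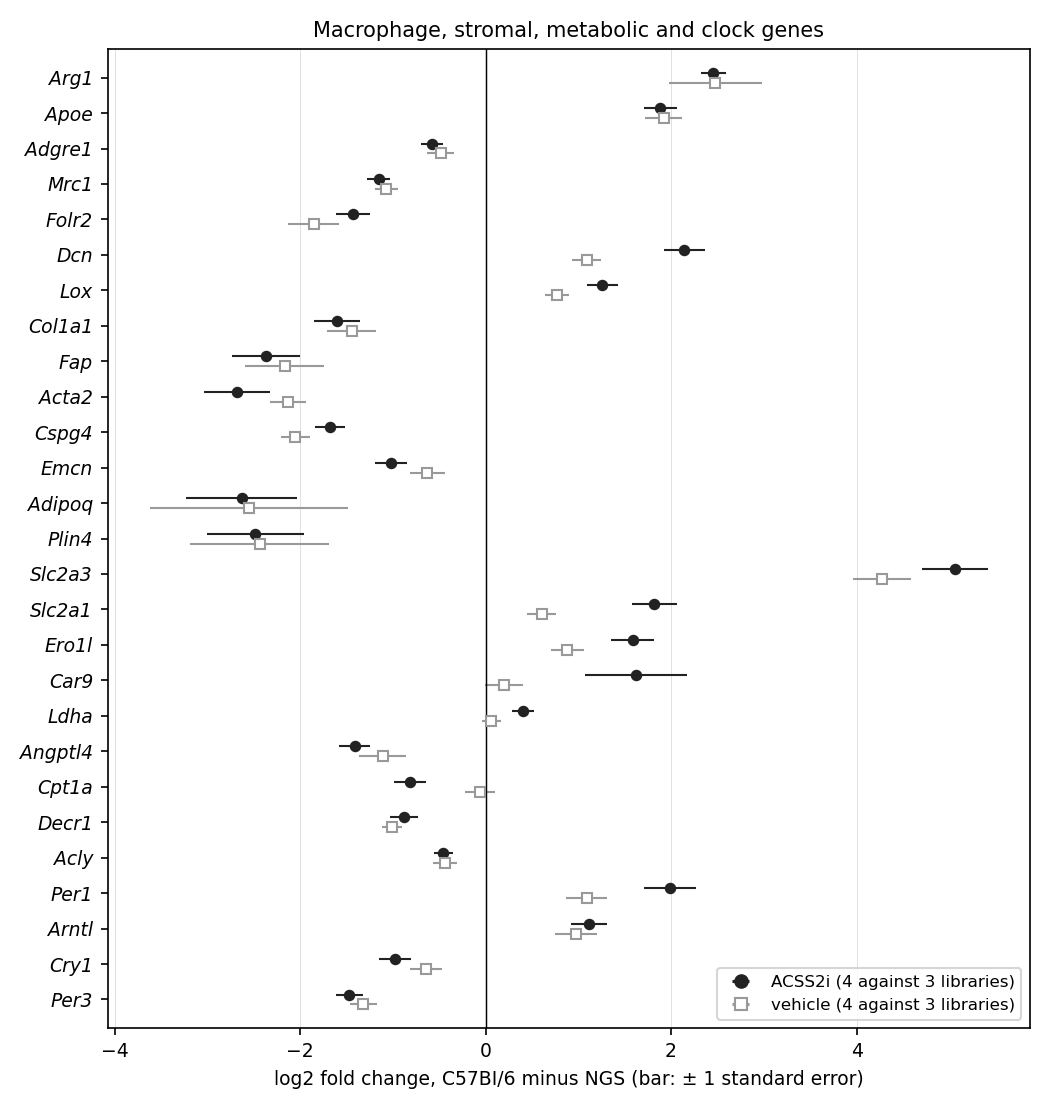
Log2 fold change, C57BI/6 minus NGS, with a bar of 1 standard error, for macrophage, stromal, metabolic and clock genes under ACSS2i (filled circles) and under vehicle (open squares). Slc2a3 stands at 5.06 under ACSS2i, Acta2 at -2.68, and the 2 treatments give the same sign for each gene shown.

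Clock genes differed in both directions, with 6 of 18 higher and 7 lower. The circadian clock is a feedback loop in which Arntl, also called Bmal1, switches on the Per and Cry genes that then repress it. Arntl read 6.03, 4.07 and 5.21 CPM in the NGS libraries and 11.4, 11.5, 10.9 and 10.8 CPM in the C57BI/6 libraries, without overlap (log2 fold change 1.12, SE 0.20, adjusted p = 0.00245), and its exons overlap Gm45355. Per1 read 16.2, 5.76 and 9.94 CPM against 46.4, 42.4, 46.8 and 35.2 CPM (log2 fold change 1.99, adjusted p = 0.000747). Per3 read 39.7, 31.9 and 33.9 CPM against 11.7, 11.0, 13.9 and 14.2 CPM (log2 fold change -1.47, adjusted p = 0.000105). Per1 and Per3, members of 1 family, stood in opposite order. Cry1 was lower at 11.3 ± 0.491 against 22.1 ± 5.22 CPM (log2 fold change -0.97, adjusted p = 0.00264). Under vehicle the host differences were 0.98 for Arntl, 1.09 for Per1, -1.32 for Per3 and -0.65 for Cry1, all past the threshold. The time of day of collection is not given, and its part in these values was not tested. Without NGS replicate 1 or replicate 3, 4 clock genes were lower, beside 2762 of all 16589 and 2098 of all 16664 genes. Without the 3 muscle-rich libraries 2 were lower, beside 1179 of all 15320 genes.

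The genes with the smallest p-values that have no overlapping or near-identical gene, a limit chosen after the values were seen, included Unc13d (ENSMUSG00000057948, mm10 chromosome 11, 116062095 to 116077961). Unc13d, which primes cytotoxic granules for release, read 4.11, 4.75 and 3.79 CPM in the NGS libraries and 129, 113, 124 and 116 CPM in the C57BI/6 libraries (log2 fold change 4.85, SE 0.14, adjusted p = 1.8e-07). Alpk2, a kinase of the alpha kinase family, read 0.548, 0.339 and 0.473 CPM against 78.0, 59.5, 65.3 and 73.1 CPM (log2 fold change 7.19, adjusted p = 2.28e-07). Caprin2, which binds RNA, read 9.86, 10.5 and 10.4 CPM against 155, 156, 147 and 126 CPM (log2 fold change 3.83, adjusted p = 2.38e-07). Unc13d and Caprin2 showed little spread in either host. Alpk2 lay too low in the NGS libraries for a spread to be read there. It passed the filter on low counts (0.544 CPM in at least 3 libraries) only with the help of the C57BI/6 libraries. Tbk1, a kinase that activates the interferon factor Irf3, read 22.7, 17.3 and 16.1 CPM against 123, 120.2, 119 and 107 CPM (log2 fold change 2.65, adjusted p = 2.42e-06). Il11, a cytokine of the IL-6 family, was higher at 22.8 ± 2.24 against 1.57 ± 0.178 CPM (log2 fold change 3.85, adjusted p = 2.31e-06). Isg20, an interferon-induced exonuclease, was higher at 45.5 ± 3.21 against 10.1 ± 0.465 CPM (log2 fold change 2.17, adjusted p = 4.34e-06). The same ranking held genes known from other tissues. Psmb11, the proteasome subunit of thymic epithelium, was at 73.1 ± 6.54 against 11.7 ± 2.90 CPM (log2 fold change 2.64, adjusted p = 8.67e-06), and the odorant receptor gene Olfr73 was at 20.5 ± 3.73 against 0.0789 ± 0.137 CPM. Olfr73, like Alpk2, passed the filter only with the help of the C57BI/6 libraries. Under vehicle the host difference was 4.53 for Unc13d, 4.88 for Alpk2, 3.91 for Caprin2, 2.71 for Tbk1, 2.804 for Psmb11 and 10.88 for Olfr73, all past the threshold.

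On the lower side this ranking held Cxcl14, described above, and the following genes. Nradd, a relative of the neurotrophin receptor, read 119, 112 and 119 CPM in the NGS libraries and 31.3, 24.8, 28.0 and 31.0 CPM in the C57BI/6 libraries (log2 fold change -2.02, adjusted p = 3.1e-06). Peg10, an imprinted gene derived from a retrotransposon (mm10 chromosome 6, 4747306 to 4760517), read 155, 158 and 152 CPM against 16.9, 17.2, 28.1 and 21.4 CPM (log2 fold change -2.89, adjusted p = 5.39e-06). Alb, the serum albumin of liver, read 32.6, 53.2 and 16.8 CPM against 0.171, 0.101, 0 and 0.0502 CPM (log2 fold change -8.55, adjusted p = 8.67e-06). Crabp1, which binds retinoic acid, read 398, 216 and 505 CPM against 14.7, 23.4, 19.2 and 25.1 CPM (log2 fold change -4.18, adjusted p = 1.23e-05). None of these groups overlapped. Ifi202b, an interferon-inducible gene whose expression is known to vary between mouse strains, read 19.2, 45.4 and 26.5 CPM against 0.342, 0, 0 and 0.101 CPM (log2 fold change -8.01, adjusted p = 2.19e-05). Dkk2, a secreted regulator of Wnt signalling, was lower at 2.24 ± 0.914 against 24.6 ± 4.37 CPM (log2 fold change -3.46, adjusted p = 4.56e-05). Cd59a, which protects cells from complement, was lower at 4.84 ± 0.822 against 22.9 ± 2.26 CPM (log2 fold change -2.24, adjusted p = 3.07e-05). Under vehicle the host differences were -1.40 for Nradd, -3.24 for Peg10, -6.80 for Alb, -3.65 for Crabp1, -9.78 for Ifi202b, -3.34 for Dkk2 and -1.85 for Cd59a, all past the threshold.

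The 3 genes past the direct test of the difference between the treatments were these. Amd-ps3, a pseudogene of the polyamine enzyme Amd1, read 0, 0 and 0.947 CPM in the treated NGS libraries and 92.5, 53.1, 69.3 and 109.8 CPM in the treated C57BI/6 libraries (log2 fold change 7.75). Its host difference under vehicle was 0.14, and the difference between the treatments was 7.62 (adjusted p = 0.000722). Amd1 with its 4 near-identical copies, Amd-ps3 among them, summed to 258 to 316 CPM in the NGS host and 319 to 385 CPM in the C57BI/6 host, so the place of these reads is uncertain. Serpinb1a, an inhibitor of neutrophil proteases, was higher in the C57BI/6 host under ACSS2i, at 24.9 ± 7.06 against 14.4 ± 2.89 CPM (log2 fold change 0.79, adjusted p = 0.0316). The Serpinb1a call under ACSS2i was lost without NGS replicate 2 or 3 or C57BI/6 replicate 2 or 3, with adjusted p from 0.0666 to 0.0945. Serpinb1a was lower there under vehicle (log2 fold change -1.13, adjusted p = 0.000129), and the difference was 1.91 (adjusted p = 0.0394). Pfn2, a profilin that binds actin monomers, did not pass between the hosts under ACSS2i, at 4.64 ± 0.604 and 4.43 ± 0.757 CPM (log2 fold change 0.07, adjusted p = 0.854). Pfn2 was lower in the C57BI/6 host under vehicle (log2 fold change -2.001, adjusted p = 7.27e-05), and the difference was 2.07 (adjusted p = 0.0394). The call on the difference between the treatments was lost without any 1 of 13 libraries for Pfn2, all but treated NGS replicate 1, with adjusted p from 0.062 to 0.158. For Serpinb1a it was lost without any 1 of 10 libraries, with adjusted p from 0.0656 to 0.16, and for Amd-ps3 with no single library left out.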

How the data were processed

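Gene counts of 14 tumour libraries were used as deposited. The labels' protocols give a 3' mRNA kit of Lexogen on polyadenylated RNA, and the submitters' processing notes name the build mm10 and the tools RSEM 1.2.3 and DESeq2 without saying what each did, so the authors' whole-number counts may be rounded estimates. The aligner, the handling of shared reads and the use of strand are not given in the sources used here. Depth was 2.85 to 20.34 M counts (M, 1000000) in the treated libraries. Of 51789 gene identifiers 51596 matched GENCODE M21. The 7 treated libraries were fitted alone with edgeR 4.0.16 (R 4.3.3), using filterByExpr (0.544 CPM in at least 3 libraries), TMM scaling, the quasi-likelihood test and Benjamini-Hochberg adjustment over all genes. The scripts were tested on simulated data. Vehicle libraries were fitted the same way, and all 14 in 1 model for the difference between treatments. Standard errors are the fold change over the root of F. A gene was called near-identical where BLAST 2.17.0 matched at least 60 bases at 98% within the last 500 bases of the transcripts, and overlaps came from bedtools 2.31.1. Named genes were the 15 with the smallest p in each direction (adjusted p under 0.05, at least 2-fold, mean log2 CPM of at least 3, groups apart), then limited to genes with no overlap or copy, plus up to 4 per list, cell type markers, the Acss genes, Il2rg and Prkdc, and 5 in each direction for the difference between treatments. Genes named outside this rule were chosen after their values were seen. Members and lists were chosen with earlier results of these data known. Same-numbered libraries of the hosts did not deviate together (r = 0.130, 0.0818 and -0.0925). Alternatives were DESeq2 1.42.0, its size factors, limma 3.58.1 voom, no filter, thinning, a replicate block, all 14 libraries and each library left out.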

Additional observations from a re-analysis of the deposited data

Results flagged for a closer look

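In 13 of 179 values tested in the C57BI/6 ACSS2i group, 1 of the 4 libraries stood far from the other 3, where chance flags about 1 in 20 groups. Replicate 2 was the highest for Igkc (668 CPM), Ighg2c (99.0 CPM), the summed B and plasma cell genes (1361 CPM), Irf1 (192 CPM), Isg20 (50.4 CPM), Pecam1 (77.6 CPM) and the summed endothelial genes (583 CPM). It was the lowest for Mmp3 (1322 CPM). Replicate 3 was the highest for Acta1 (952 CPM), the summed skeletal muscle genes (5720.5 CPM), Cxcl1 (55.1 CPM) and Ero1l (312 CPM), and the lowest for Il7r (14.9 CPM).

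The host difference itself differed between ACSS2i and vehicle, by the test of the difference over 14 libraries, for Amd-ps3 (7.62 on the log2 scale), Pfn2 (2.07) and Serpinb1a (1.91).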

How the results depend on the processing

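Depth limits the low genes of the NGS host, and host and depth cannot be told apart. The alternatives restricted to gene classes and the one without the 3 libraries richest in muscle RNA were added after seeing the data. With the replicate block, 3644 genes were called under ACSS2i and 3542 under vehicle, although the numbers do not pair the libraries. Without the muscle-rich libraries 2912 were called. Among protein-coding genes with no overlap or copy, 2774 were called under ACSS2i, 1181 at 2-fold or more, and 2570 under vehicle. At 2-fold or more 2035 were called after thinning and 1972 among protein-coding genes. Fewer genes tested, fewer samples or lower depth were built into these alternatives other than the block, for which the cause was not tested. Leaving out each library gave 4474 to 6481 calls under ACSS2i, 2539 to 3538 at 2-fold or more, 4296 to 5402 under vehicle, and 1 to 62 for the difference between treatments. That last count was 283 with DESeq2, 0 with limma voom and 7 with no filter; the cause was not tested.

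Of the 116 named genes past the threshold none changed sign under any alternative run, and 96 kept their call under every one. The call was lost for 13 named genes without the muscle-rich libraries, for 8 with limma voom and for 6 with the replicate block. Losses by method included Il1b (adjusted p = 0.109) and Cxcl1 (0.0609) with limma voom. They also included Jak3 with the block (0.058), and Acss1 with the block (0.135) and with thinning (0.262). Genes that did not pass changed sign as follows, on the log2 scale, and the cause was not tested. Over the left-out libraries the values ran from -0.63 to 0.16 for Acss2, -1.58 to 6.47 for Acta1, -0.11 to 0.25 for Csf1r, -0.12 to 0.16 for Irf1, -0.35 to 0.24 for Irf7, -0.20 to 0.057 for Klra4, -2.75 to 2.16 for Krt10, -0.11 to 0.68 for Ly6c2, -0.057 to 0.18 for Pfn2, -0.49 to 0.15 for Prkdc and -0.28 to 1.41 for Tnf. Without the muscle-rich libraries they were 0.28 for Acss2, -0.81 for Acta1, -0.084 for Csf1r, 1.90 for Krt10, -0.046 for Ly6c2, -0.17 for Pfn2 and -0.092 for Tnf. With limma voom they were -0.14 for Irf1, 0.20 for Krt10 and -0.0081 for Pfn2. Irf1 was at -0.0013 with the size factors and -0.002 with DESeq2, and Irf7 at 0.0013 with the replicate block.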
